A study of Mus musculus with 5 samples.

Results

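The genes described here are the C/EBP transcription factors Cebpa, Cebpb, Cebpd, Cebpe and Cebpg and the zinc finger repressor Gfi1, 6 genes chosen by name among the 55487 gene identifiers of the count table. They were examined in common lymphoid progenitors (CLPs), the marrow progenitors of B, T and natural killer cells, isolated from mouse bone marrow by the gate Lin-CD127+Flt3+. There were 3 libraries of the SF1 genotype, SclCre with JAK2-V617F, and 2 wild-type (WT) libraries, and marrow of both groups was taken 16 weeks after tamoxifen. JAK2-V617F is the activated kinase mutant of myeloproliferative neoplasms, and SclCre is a tamoxifen-inducible recombinase under regulatory sequence of the Scl gene, which is active in blood stem and progenitor cells. The sources used here give neither the age or strain of the mice nor whether the WT mice carried Cre. Nor do the labels say whether a library stands for 1 animal or a pool, so p-values measure only the spread between these libraries.

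C/EBP factors bind DNA as dimers through a basic leucine zipper and are known for directing granulocyte and monocyte differentiation. C/EBP alpha starts the granulocyte programme and can turn lymphoid cells into myeloid cells when forced into them, C/EBP beta acts when granulocyte output is raised by cytokines, and C/EBP epsilon is needed for the late granule proteins. Gfi1 silences monocyte genes in developing neutrophils and is also active in lymphoid progenitors. Counts per gene do not show which protein form is made from the RNA, and C/EBP alpha and beta have several.

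The SF1 libraries held 9350767 to 11290082 counts, WT replicate 1 held 20424296 and WT replicate 2 held 8894288. Levels are given as CPM, counts scaled to a common library total after TMM, a method that adjusts totals for differences in composition. Values of single libraries follow the replicate numbers, 1 to 3 for SF1 and then 1 and 2 for WT. Before TMM, 1 count was worth 0.049 to 0.112 CPM depending on the library, and 3 counts, taken as the floor, 0.147 to 0.337 CPM. After TMM, 3 counts were 0.341 CPM in WT replicate 2. A gene was called where its adjusted p was under 0.05 in the quasi-likelihood test of edgeR, adjusted by Benjamini-Hochberg over all 14423 genes tested. Both genes of the positive gate were present in every library. Il7r, which encodes CD127, was at 464, 420 and 430 CPM across SF1, against 330 and 370 CPM across WT, and was called higher (log2 fold change 0.32, adjusted p = 0.0318), a call lost when any SF1 library or WT replicate 1 was left out (adjusted p between 0.0665 and 0.211). Flt3 did not pass, and was at a mean of 1640 ± 53.0 CPM in SF1 (SD, n = 3), against 1510 ± 2.26 CPM in WT (SD, n = 2). Dntt, the terminal transferase gene of lymphoid progenitors, did not pass either, at a mean of 5124 ± 245 CPM in SF1, against 5056 ± 113 CPM in WT. Of 8 markers of the sorted progenitor, 3 were higher, 2 lower and 3 not called in SF1. Besides Il7r, the higher ones were Ly6d and Ly6a. Ly6d was at a mean of 987 ± 41.1 CPM in SF1, against 520 ± 11.8 CPM in WT (adjusted p = 0.000232). Ly6a was at 76.3 ± 0.992 CPM in SF1, against 36.9 ± 4.69 CPM in WT (adjusted p = 0.000772). Over 14 alternatives the log2 fold change was 0.764 to 0.955 for Ly6d and 0.762 to 1.176 for Ly6a. The lower ones, the stem cell factor receptor gene Kit and the recombinase gene Rag1, were both lost when WT replicate 1 was left out, and Rag1 also when SF1 replicate 2 or 3 was. Jak2 did not pass the test (log2 fold change 0.48, adjusted p = 0.104 by edgeR), and counts per gene do not check the genotype.

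Cebpb and Cebpe rose in the SF1 libraries, while Cebpa, Cebpd, Cebpg and Gfi1 did not pass. Cebpb was 11.8-fold and Cebpe 7.43-fold higher. Cebpg, the C/EBP gene with the most RNA in WT cells, stood within a narrow range in all 5 libraries. Of the 6 genes 2 were called, both higher, where 16.5% of all genes tested were called, 6.77% as higher and 9.74% as lower in SF1. The SF1 range lay above the WT range for 4 of the 6 genes, as it did for 24.8% of all genes tested, and for none of the 6 did it lie below, as it did for 24.3% of all genes, so that the ranges were apart in 49.1%. All 6 genes passed the filter on low counts, which asks for 0.932 CPM in 2 or more libraries. Cebpe reached that level in no WT library and Cebpb in 1, so both entered the test through the SF1 libraries. A gene that enters so had to be high there, and the count of 2 is given as a description.

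**Figure D1:**
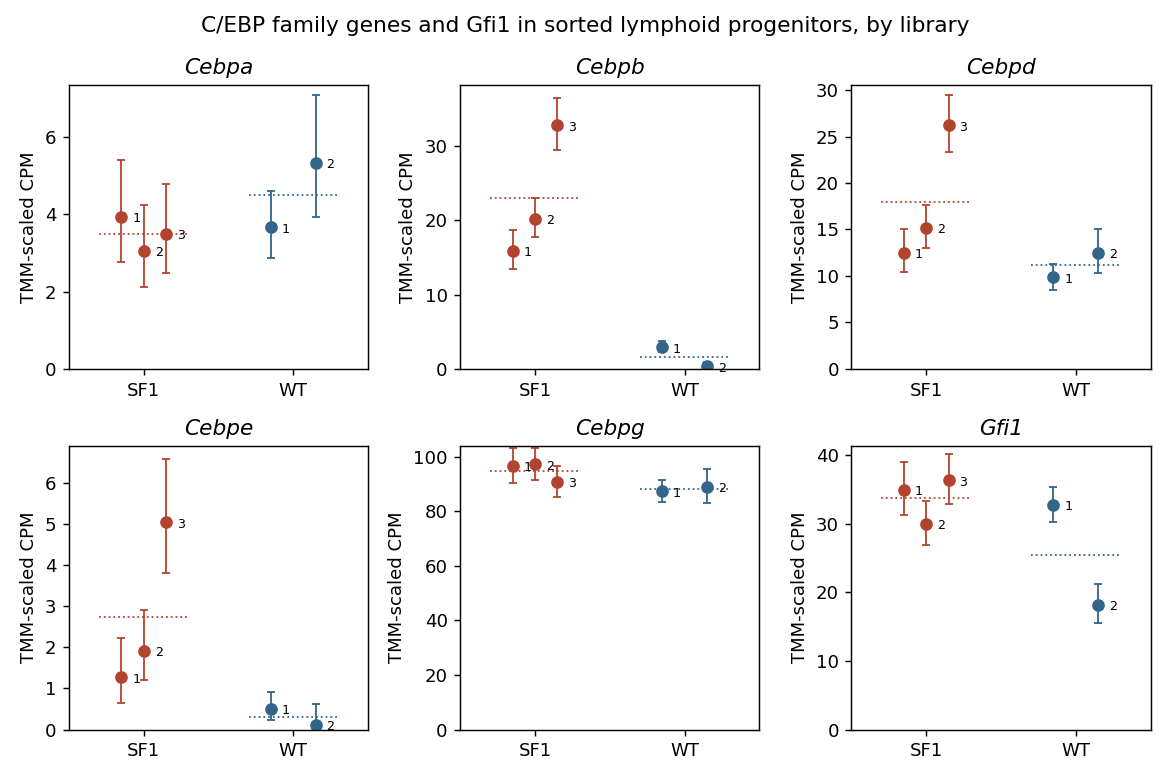
TMM-scaled CPM (vertical axes, from 0) of each gene in the 3 SF1 libraries (left of each panel) and the 2 WT libraries (right). Points are libraries with their replicate numbers, bars are 95% Poisson intervals that cover counting error only, and dotted lines are group means. Cebpb sits between 15.9 and 32.8 CPM across SF1, against 2.91 and 0.341 CPM across WT, and Cebpg between 87.3 and 97.2 CPM throughout.

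Cebpb (ENSMUSG00000056501, GRCm38 chromosome 2, 167688915 to 167690418, plus strand) is a gene of 1 exon and 1504 bases. It had 150, 231 and 358 counts in the SF1 libraries, or 15.9, 20.2 and 32.8 CPM. The WT libraries had 58 and 3 counts, or 2.91 and 0.341 CPM. Every SF1 library was above both WT libraries, and the lowest SF1 value stood well clear of the highest WT value. Mean levels were 23.0 ± 8.79 CPM in SF1 (SD, n = 3), against 1.63 ± 1.82 CPM in WT (SD, n = 2). The log2 fold change was 3.57, with an SE of 0.54, a 95% interval of 2.35 to 4.78 and adjusted p = 0.00336. The WT libraries differed from each other by more than counting error, since their exact Poisson intervals were 2.21 to 3.77 CPM and 0.0703 to 0.997 CPM. The size of the change therefore rests on which WT library is used: the log2 fold change was 2.97 without WT replicate 2 (adjusted p = 0.0034) and 6.03 without WT replicate 1 (adjusted p = 0.0015). Against the 3 counts of WT replicate 2 alone, the ratio of summed SF1 counts per effective library size was 68.2, with a 95% counting interval of 23.3 to 332.

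In the annotation, 20.7% of the exon bases of Cebpb are shared with an exon of Tmem189, a gene on the opposite strand, and the protocol does not mark the strand. Tmem189 was at a mean of 45.7 ± 2.81 CPM in SF1 (SD, n = 3), against 47.7 ± 7.98 CPM in WT (SD, n = 2), which did not pass (log2 fold change -0.07, adjusted p = 0.762).

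The sequence before the Cebpb start is shown beside that of Cebpa, since the first gene rose and the second, though the founding member of the family, did not pass. Each is the 250 bases before the RefSeq start on GRCm38.p6, 5′ to 3′ on the strand of the gene. Capitals mark TGACG or its reverse complement CGTCA, the core of the element bound by CREB and ATF factors, in Cebpb and the TATA box TATAAA in Cebpa.
Cebpb, chr2:167688665-167688914, plus strand: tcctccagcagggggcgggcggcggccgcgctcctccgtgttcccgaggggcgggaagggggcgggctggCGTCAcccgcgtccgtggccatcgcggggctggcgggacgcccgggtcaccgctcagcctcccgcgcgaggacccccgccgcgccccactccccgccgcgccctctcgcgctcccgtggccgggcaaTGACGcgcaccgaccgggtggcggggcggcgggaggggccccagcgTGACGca
Cebpa, chr7:35119043-35119292, plus strand: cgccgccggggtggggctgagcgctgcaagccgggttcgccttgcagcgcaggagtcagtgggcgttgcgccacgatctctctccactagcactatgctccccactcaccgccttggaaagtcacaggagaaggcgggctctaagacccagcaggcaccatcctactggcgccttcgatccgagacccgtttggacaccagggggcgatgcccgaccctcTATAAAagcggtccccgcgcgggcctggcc
The Cebpb window held TGACG or CGTCA at 3 places, which began 180, 53 and 7 bases before the start. Of 32851 windows of the same length in the RefSeq table, 17.8% held these letters at least 1 time and 0.688% at 3 or more places. The cutoff of 3 was taken from the Cebpb window itself, and the windows were not matched for GC content. The Cebpa window held TATAAA from base 30 to base 25 before the start. At any place and on 1 strand or the other, 12.4% of windows held these letters. GC content was 81.6% in the Cebpb window and 66.4% in that of Cebpa. No match on either strand was found in these windows for TTGCNNAA (a C/EBP element, in 9.56% of windows), TTCNNNGAA (a STAT element, in 7.02%) or AAATCAC (a Gfi1 element, in 2.75%). Windows were at hand for 4 of the 6 genes, all but Cebpd and Cebpe. That of Cebpg held none of the 5 motifs, and of the pair for Gfi1 the one farther upstream held 1 match, TTGCTGAA, to the C/EBP element. These are matches of letters and not shown to be bound.

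Cebpe (ENSMUSG00000052435, chromosome 14, 54710360 to 54712174, minus strand), which encodes the factor of late granulocyte maturation, was the least abundant of the genes in WT. It had 12, 22 and 55 counts in the SF1 libraries, against 10 and 1 counts in the WT libraries. These counts were 1.27, 1.92 and 5.04 CPM in SF1 and 0.502 and 0.114 CPM in WT. All SF1 libraries were above both WT libraries, and SF1 replicate 3 was well above the other SF1 libraries. Mean levels were 2.75 ± 2.02 CPM in SF1 (SD, n = 3), against 0.308 ± 0.275 CPM in WT (SD, n = 2). The log2 fold change was 2.89, with an SE of 0.76, a 95% interval of 1.18 to 4.61 and adjusted p = 0.0328. Leaving out any 1 library but SF1 replicate 1 ended the call. The log2 fold change was then 3.10 without SF1 replicate 2 (adjusted p = 0.0601), 2.11 without SF1 replicate 3 (0.0848), 4.46 without WT replicate 1 (0.0851) and 2.43 without WT replicate 2 (0.106). Limma voom (adjusted p = 0.0606) and thinning of all libraries to equal totals (adjusted p = 0.0514) also left Cebpe short of the threshold. Against the single count of WT replicate 2, the ratio was 24.6 with a 95% counting interval of 4.31 to 984.

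Cebpd (ENSMUSG00000071637, chromosome 16, 15887286 to 15891031, plus strand), a gene known to be induced by inflammatory cytokines, did not pass. It was at 12.5, 15.2 and 26.2 CPM across SF1, against 9.85 and 12.5 CPM across WT. The lowest SF1 library (12.53 CPM) and the highest WT library (12.50 CPM) were level, so the ranges were separate in name alone, and SF1 replicate 3 was again the highest. The log2 fold change was 0.71 (95% interval 0.03 to 1.39, adjusted p = 0.145), and 0.33 without SF1 replicate 3 (adjusted p = 0.373). It passed where genes of low counts were kept in (0.69, adjusted p = 0.00969). Cebpd shares 15% of its exon bases with Spidr on the opposite strand, which was at a mean of 57.1 ± 4.45 CPM in SF1 (SD, n = 3), against 66.9 ± 5.82 CPM in WT (SD, n = 2) (log2 fold change -0.23, adjusted p = 0.189).

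Cebpa (ENSMUSG00000034957, chromosome 7, 35119293 to 35121928, plus strand) was low in both groups. It had 37, 35 and 38 counts in the SF1 libraries, against 73 and 47 counts in the WT libraries, which is 3.93, 3.06 and 3.49 CPM in SF1 and 3.67 and 5.34 CPM in WT. The groups overlapped. The log2 fold change was -0.35 (SE 0.29, adjusted p = 0.461) with a 95% interval of -1.01 to 0.32. Without WT replicate 2 the log2 fold change was -0.08.

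Cebpg (ENSMUSG00000056216, chromosome 7, 35046422 to 35056573, minus strand) lies 62720 bases from Cebpa and encodes a short C/EBP protein that lacks an activation domain of its own and works through its partners. It was at 96.6, 97.2 and 90.7 CPM across SF1, against 87.3 and 89.0 CPM across WT. The SF1 libraries were all slightly above the WT libraries. Its log2 fold change was 0.11 (SE 0.09, adjusted p = 0.433) with a 95% interval of -0.09 to 0.30, the narrowest of the 6 genes.

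Gfi1 (ENSMUSG00000029275, chromosome 5, 107716657 to 107726036, minus strand) was at 34.9, 30.0 and 36.3 CPM across SF1, against 32.7 and 18.2 CPM across WT. WT replicate 1 lay inside the SF1 range and WT replicate 2 below it. The log2 fold change was 0.38 (SE 0.22, 95% interval -0.11 to 0.87, adjusted p = 0.269). The outcome depended on the WT library: Gfi1 passed as higher when WT replicate 1 was left out (0.89, adjusted p = 0.023), and when WT replicate 2 was left out the log2 fold change was 0.04 (adjusted p = 0.906).

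**Figure D2:**
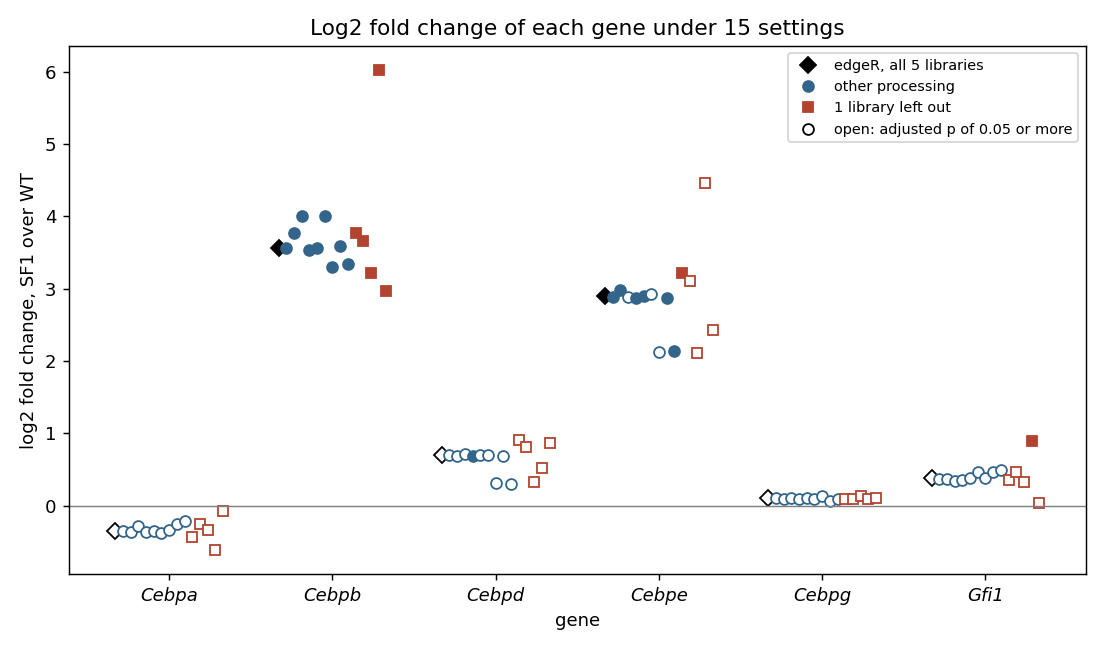
Log2 fold change of SF1 over WT (vertical axis) for each gene (horizontal axis) in the edgeR fit to all 5 libraries (black diamonds), under 9 other processing choices (blue circles) and with 1 library left out (red squares), in the same order for each gene. Filled symbols have an adjusted p under 0.05: Cebpb is filled throughout, between 2.97 and 6.03, while Cebpe runs from 2.11 to 4.46 and is open in 7 of its 14 alternatives.

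Set against each other per length, as CPM per kilobase of exon, the genes stood in a different order in SF1 and in WT. In SF1 the mean levels were 16.9 ± 0.638 for Cebpg, 15.3 ± 5.85 for Cebpb, 10.6 ± 1.05 for Gfi1, 4.80 ± 1.94 for Cebpd, 2.21 ± 1.62 for Cebpe and 1.32 ± 0.165 for Cebpa (SD, n = 3). In WT they were 15.7 ± 0.214 for Cebpg, 7.98 ± 3.21 for Gfi1, 2.98 ± 0.502 for Cebpd, 1.71 ± 0.45 for Cebpa, 1.08 ± 1.21 for Cebpb and 0.248 ± 0.221 for Cebpe (SD, n = 2). Among SF1 libraries the ranges of Cebpg and Cebpb overlapped, as did those of Cebpb and Gfi1, of Cebpd and Cebpe, and of Cebpe and Cebpa. Among WT libraries those of Cebpa and Cebpb and of Cebpb and Cebpe overlapped.

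Cebpb made up 31.5%, 35.8% and 43.4% of the summed CPM per kilobase of the 5 C/EBP genes in the SF1 libraries, against 8.85% and 1.05% in the WT libraries. Cebpg made up 51.1%, 46.1% and 32% in SF1 and 70.9% and 73.6% in WT. The summed level was 33.6, 37.5 and 50.4 in SF1 and 21.9 and 21.5 in WT. Neither share overlapped between the groups. These shares follow from the levels above and were not tested.

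**Figure D3:**
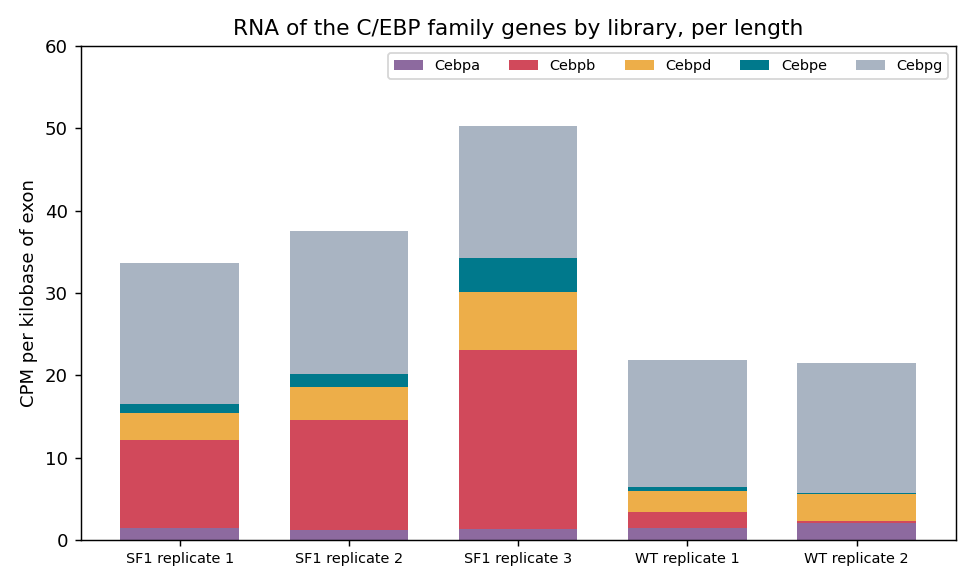
Stacked CPM per kilobase of exon (vertical axis, from 0) of the 5 C/EBP genes in each library, SF1 on the left and WT on the right. The Cebpg segment is between 16.1 and 17.3 in SF1 and at 15.5 and 15.8 in WT, while the Cebpb segment is between 10.6 and 21.8 in SF1 and at 1.94 and 0.227 in WT.

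Genes known as C/EBP targets in granulocytes were mostly higher in SF1. Of 22 such genes, all tested, 19 were higher and 3 did not pass, with a median log2 fold change of 3.94 against 0.02 over all genes tested. Without WT replicate 1 the count was 12. Ltf, the lactoferrin gene whose expression needs C/EBP epsilon, was at 177, 251 and 567 CPM across SF1, against 14.4 and 16.5 CPM across WT (log2 fold change 4.44, adjusted p = 0.001). Ngp, another late granule gene, was at 312, 458 and 1200 CPM across SF1, against 35.4 and 30.7 CPM across WT (adjusted p = 0.00172). Csf1r, the macrophage colony-stimulating factor receptor gene, rose by 1.20 in log2 terms (adjusted p = 0.00372). The 3 that did not pass were Mpo, the myeloperoxidase gene, and the receptor genes Csf3r and Csf2ra. Csf3r was at 28.2, 36.9 and 54.8 CPM across SF1, against 39.3 and 35.9 CPM across WT (adjusted p = 0.836), and Mpo at a mean of 855.5 ± 116 CPM in SF1 (SD, n = 3), against 881.7 ± 147 CPM in WT (SD, n = 2) (adjusted p = 0.857). These 3 were picked out after their values were seen.

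Markers of neutrophils and their precursors were mostly higher in SF1, where Cebpb and Cebpe were higher too. Of 15 such markers, 12 of them also in the target list, 14 were higher in SF1, none was lower and Mpo did not pass (8 higher without WT replicate 1). Their summed level was 2101, 2599 and 5545 CPM across SF1, against 929 and 1194 CPM across WT. Without Mpo, left out after its values were seen, it was 1330, 1790 and 4560 CPM in SF1 and 152 and 208 CPM in WT. SF1 replicate 3 was the highest library for this sum and for Cebpb, Cebpd and Cebpe. Between the WT libraries the order was not shared by the sums, each of which was higher in replicate 2. The single markers went both ways. In WT replicates 1 and 2, Elane was at 8.59 and 21.1 CPM, Prtn3 at 12.7 and 24.3 and Ctsg at 26 and 52.7. Ngp was at 35.4 and 30.7 CPM and Camp at 9.7 and 8.18. All of the markers but Ngp, Camp and Ly6g were higher in WT replicate 2. Cebpb (0.341 against 2.91 CPM) and Cebpe (0.114 against 0.502 CPM) were lower in WT replicate 2 than in WT replicate 1. None of the 15 markers was at 0 over either group. The part of these cells in the rise of Cebpb and Cebpe was not tested, and in bulk RNA fewer cells of a type and less RNA per cell cannot be told apart.

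**Figure D4:**
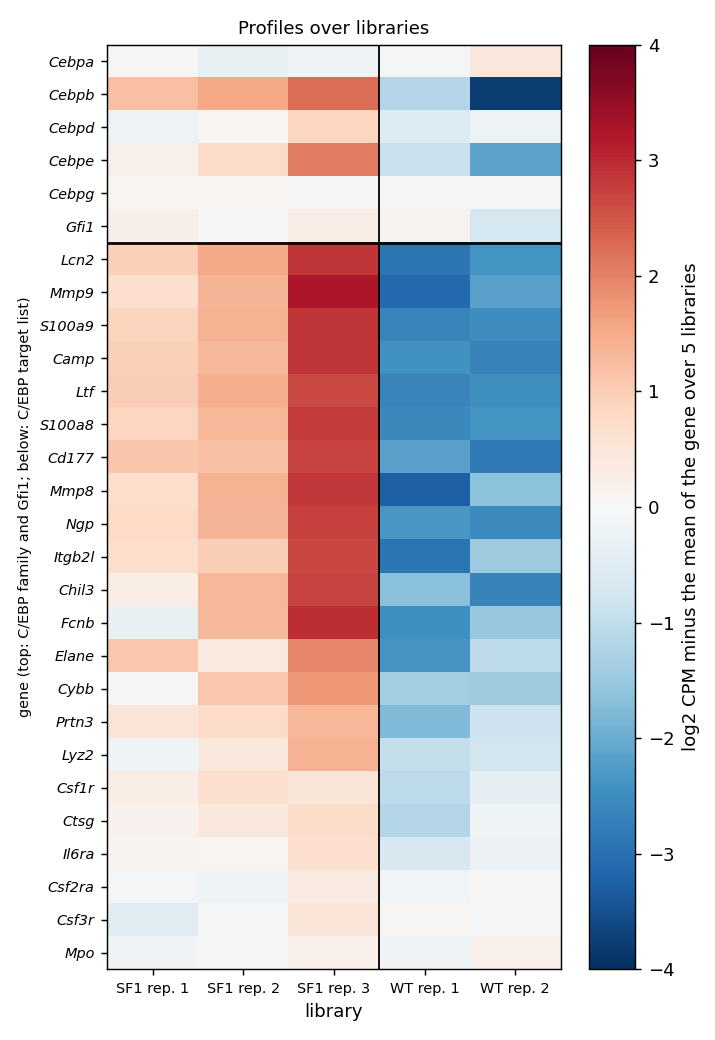
Log2 CPM of each gene minus its mean over the 5 libraries (colour, red above and blue below the mean) for the C/EBP genes and Gfi1 (rows above the black line) and the 22 genes known as C/EBP targets (rows below it), with SF1 libraries left of WT libraries. Cebpb and Cebpe are red in SF1 and blue in WT like most target genes, with SF1 replicate 3 the reddest, while the rows of Cebpa, Cebpg, Csf2ra, Csf3r and Mpo are pale.

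The genes whose profile over the 5 libraries was most like that of each gene were found by the root-mean-square (RMS) difference in centred log2 CPM among 9872 named protein-coding genes with a mean of at least 5 CPM. For Cebpb they were Lilr4b, an inhibitory myeloid receptor gene with near-identical copies whose separate values are uncertain (RMS difference 0.57), the neutrophil surface gene Cd177 (0.67) and the chitinase-like gene Chil3 (0.72). For Cebpe they were the AP-1 gene Fos (0.42), the phagocyte oxidase gene Cybb (0.45) and Mtus1 (0.47). The nearest for Cebpd were Gpc1 (0.05), the properdin gene Cfp (0.10) and Pkp3 (0.14). Cebpb and Cebpe were farther from their nearest genes than the other 4 were, and differed from each other by 0.94. The RMS difference is not scaled for the size of a change, so genes that change more tend to lie farther from others. Fos was at 27.7, 41.9 and 113 CPM across SF1, against 9.44 and 9.78 CPM across WT (log2 fold change 2.67, adjusted p = 0.0124; 0.0837 without WT replicate 1). For Gfi1 the nearest were the ubiquitin ligase gene Siah2 (0.03), Sapcd1 (0.06) and Ube3c (0.07), all 3 lower in WT replicate 2 than in WT replicate 1, like Gfi1. Those for Cebpa were Cks2, Prcc and Zfp202 (0.06 to 0.07), and those for Cebpg included Ythdc1 and Ska2 (0.01 each). With 5 libraries these are descriptions.

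Genes listed as partners or regulators of C/EBP factors went both ways. Of 13 tested of 14, 3 were higher, 3 lower and 7 did not pass, with a median log2 fold change of -0.14. Cop1, the ubiquitin ligase that works with some Tribbles proteins to degrade C/EBP alpha, was at 57.3, 73.7 and 63.9 CPM across SF1, against 24.5 and 19.6 CPM across WT, 2.92-fold higher (adjusted p = 0.000559). Trib3, a Tribbles gene induced by amino acid and endoplasmic reticulum stress, was at 2.87, 1.57 and 1.47 CPM across SF1, against 9.44 and 6.59 CPM across WT, 4.15-fold lower (adjusted p = 0.00491; 0.0581 without WT replicate 1). The Tribbles genes Trib1 (log2 fold change -0.385, adjusted p = 0.516) and Trib2 (-1.461, adjusted p = 0.0543) did not pass. The stability of C/EBP alpha protein was not tested. Batf, a leucine zipper factor, rose 1.73-fold (adjusted p = 0.0116), and Tef, a leucine zipper factor of the circadian group, fell by 0.58 in log2 terms (adjusted p = 0.0168). Neither passed when WT replicate 1 was left out (adjusted p = 0.0992 for Batf and 0.161 for Tef), nor did Tef pass without SF1 replicate 2 (0.057) or 3 (0.0611). Without WT replicate 1 only 1 gene of the list was higher and none lower, and only 1 was lower when either SF1 replicate 2 or SF1 replicate 3 was left out.

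Of cytokine receptor and STAT3 pathway genes upstream of C/EBP factors, 3 of 14 were higher, none was lower and 11 did not pass, with a median log2 fold change of 0.22. Il1r1, the interleukin-1 receptor gene, was at a mean of 102 ± 8.94 CPM in SF1 (SD, n = 3), against 71.8 ± 8.82 CPM in WT (SD, n = 2) (log2 fold change 0.51, adjusted p = 0.0177). It was lost without SF1 replicate 2 or 3 or WT replicate 2 (adjusted p = 0.0641, 0.0636 and 0.0884). The adaptor gene Myd88 (0.33, adjusted p = 0.0417) and the interleukin-6 receptor gene Il6ra (0.76, adjusted p = 0.0499) were lost without SF1 replicate 1, 2 or 3 or WT replicate 1, and Myd88 also without WT replicate 2 (adjusted p of 0.0563 or more). Socs3, the feedback inhibitor that STAT3 induces, did not pass, at 11.8, 20 and 18.5 CPM across SF1, against 9.49 and 10.5 CPM across WT (adjusted p = 0.0589, and between 0.00629 and 0.26 over the alternatives). Leaving out SF1 replicate 2 or 3 left no call in these 14 genes, and leaving out WT replicate 2 left 1.

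Of the paralog and corepressors of Gfi1, 1 was higher, 1 lower and 8 did not pass of 10 tested of 11 (median log2 fold change 0.09), where 6.77% of all genes tested were called higher and 9.74% lower. Rcor1, the CoREST scaffold gene, was at 75.9, 106 and 90.5 CPM across SF1, against 42.4 and 35.4 CPM across WT, higher by 1.22 in log2 terms (adjusted p = 0.00154). Ehmt2, the histone methyltransferase gene, fell by 0.43 in log2 terms (adjusted p = 0.0145), but the difference was -0.17 after GC and length correction (adjusted p = 0.273), and the call was also lost when replicate 2 of either group was left out (adjusted p = 0.0551 for SF1 and 0.0671 for WT). Without WT replicate 1, 2 genes of this list were higher.

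Of genes known to be repressed by Gfi1 in blood cells, 7 of 13 tested of 14 were higher, 1 was lower and 5 did not pass, with a median log2 fold change of 0.71. Irf8, the monocyte and dendritic cell factor, was at 1040, 1110 and 1320 CPM across SF1, against 574 and 662 CPM across WT (adjusted p = 0.0014). Id2, an antagonist of E proteins, was at 29.3, 26.6 and 32.5 CPM across SF1, against 17.2 and 19.0 CPM across WT (log2 fold change 0.71, adjusted p = 0.0111; 0.0881 without WT replicate 1). Csf1, the macrophage growth factor gene, was the lower one, at 3.40, 3.58 and 2.75 CPM across SF1, against 7.59 and 7.16 CPM across WT (adjusted p = 0.0129; 0.0968 without WT replicate 1). The number higher was 4 when SF1 replicate 2 or WT replicate 2 was left out, 3 for SF1 replicate 3 and 2 for WT replicate 1, in which case none was lower.

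Other myeloid transcription factors mostly did not pass, with 3 higher, none lower and 12 not called of 15 tested of 16 (median log2 fold change -0.02; 1 higher without WT replicate 1). The 3 higher ones were Irf8, Id2 and Egr1, which are also counted among the genes repressed by Gfi1. Spi1, which encodes PU.1, the partner of C/EBP alpha in myeloid genes, was at a mean of 108 ± 11.9 CPM in SF1 (SD, n = 3), against 120 ± 0.649 CPM in WT (SD, n = 2) (adjusted p = 0.347). Egr1, a monocyte factor that Gfi1 represses, rose 2.29-fold (adjusted p = 0.0382), a call lost without any 1 of SF1 replicates 1 and 3 and WT replicates 1 and 2 (adjusted p = 0.0809, 0.112, 0.177 and 0.1). Of 9 tested of 10 B-lineage factors, which C/EBP alpha is known to oppose, 5 were lower and none higher (median -0.82; 1 higher without SF1 replicate 1). Pax5, the factor C/EBP alpha represses in converted B cells, was at 19.9, 15.5 and 13.7 CPM across SF1, against 35.2 and 37.5 CPM across WT (adjusted p = 0.00259).

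The Lin- gate is meant to remove mature cells of the other blood lineages, neutrophils included. Some markers of such cells were detected and called all the same. Of 12 monocyte and macrophage markers, 6 were higher and 4 lower, and their sum was between 381 and 496 CPM across SF1, against 190 and 249 CPM across WT. The monocyte gene Ly6c2 rose 8.57-fold (adjusted p = 0.0018), while Cd5l, a macrophage gene, had no counts in SF1. Of the monocyte and macrophage markers 3 were higher without WT replicate 1, and 1 was lower without SF1 replicate 2 or either WT replicate. Of 7 tested of 8 dendritic cell markers, 4 were higher (1 without WT replicate 1), with a sum of between 715.8 and 882.5 CPM in SF1 and of 431.5 and 482.5 CPM in WT. Of 4 tested of 8 eosinophil, basophil and mast cell markers 1 was higher, and none without SF1 replicate 3 or either WT replicate. The sum of these 8 was between 16.8 and 39.6 CPM in SF1 and was 8.04 and 11.25 CPM in WT, with Prss34, Epx and Il5ra at 0 in both WT libraries. Erythroid markers were lower in 5 of 6 tested of 8, with sums between 4.54 and 6.88 CPM in SF1 and of 70.2 and 48.0 CPM in WT, and Hba-a2 at 0 in SF1. Mature B and plasma cell markers were higher in 2 of 6 tested of 8, with sums between 677 and 786 CPM in SF1 and of 405.5 and 439.1 CPM in WT. The part of these cells in the results on Cebpb and Cebpe was not tested.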

How the data were processed

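RNA of sorted marrow progenitors was sequenced in 3 SF1 and 2 WT libraries. Per the labels' protocols, RNA of RIN above 7 was amplified with SMART-Seq chemistry (in either of 2 versions, without a statement of which library had which) for Nextera XT libraries. This copies full-length polyadenylated RNA without molecular identifiers or strand marks, so PCR copies are counted and intervals and floors cover counting error only. The authors deposited raw counts of reads per gene, not normalized. The submitters' processing notes name GRCm38, FastQC, featureCounts 2.0.1 and HISAT2 2.2.1. The release of the annotation, the setting for strand and how multiply matching reads were counted were not given in the sources used here.

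Symbols, coordinates, exon lengths and GC content came from GENCODE M21 (GRCm38), which matched 55227 of 55487 identifiers; the other 260 hold 0.0123% of counts. Promoter sequences are from RefSeq. Within groups, chi-square per degree of freedom between libraries was between 6.89 and 9.55, so libraries of a group differed by more than counting error. Pairs across the groups were not compared. The values do not show whether libraries came from separate animals.

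SF1 was set against WT with edgeR 4.0.16 (R 4.3.3): TMM scaling, filterByExpr (minimum count 10), quasi-likelihood F test, no covariate, Benjamini-Hochberg adjustment over 14423 genes, threshold 0.05. A positive log2 fold change means higher in SF1, and its SE comes from the F statistic. Every adjusted p-value belongs to this test where the sentence names no other. Alternatives were RLE size factors, DESeq2 1.42.0, limma 3.58.1 voom with sample weights, no filter, a filter at a mean of 1 CPM, thinning to 8894288 counts, GC and length offsets, the replicate number as a block, and leaving out each library. Profiles used log2 CPM with a prior count of 2.

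The members and 14 gene lists were chosen with earlier results of these data known, so no set test was run. Some genes are in several lists, among them Csf1r, Il6ra, Il7r, Socs3, Irf8, Id2 and Egr1. Counts from different lists are therefore not separate results. Genes named are the members, up to 4 genes per list with the smallest p, the 3 genes with the profile nearest to each member, and Jak2, Il7r and Flt3; 1 gene that this rule names is not reported here, and any others were chosen after their values were seen.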

Additional observations from a re-analysis of the deposited data

How the results depend on the processing

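Cebpb kept its call as higher under all 14 alternatives (log2 fold change 2.97 to 6.03), and Cebpa and Cebpg passed under none. Cebpe, at 2.89 by edgeR, did not pass with limma voom (2.89), after thinning (2.93) or with the replicate block (2.12), and ran from 2.11 to 4.46 with 1 library left out. Cebpd passed with no filter (0.69), and Gfi1 ran from 0.04 to 0.89 with 1 library left out, passing without WT replicate 1. Of the 6 genes, 1 was called with limma voom, after thinning and with the replicate block, and 1 or 2 with 1 library left out.

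Over all genes, 2382 were called, and between 986 and 2170 with 1 library left out, of which 464 to 905 were higher and 522 to 1265 lower. The replicate block left 1519 calls, 574 of them higher, and the block with GC and length correction left 1986. Replicate numbers were not shown to pair the libraries, since deviations from the group means correlated by 0.036 between the libraries numbered 1 and by 0.065 between those numbered 2. Of 972 values of the 70 other named genes under alternatives, 871 kept their direction and side of the threshold, 72 lost and 25 gained a call, and 4 changed sign. The 4 were Ska2 (-0.069 with GC and length correction, -0.032 with the block added), Siah2 (-0.021 to 0.87 with 1 library left out) and Zfp202 (-0.57 to 0.03), none called in either direction by edgeR over all 5 libraries. The cause was not tested.

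The WT libraries differed in Cebpb and Gfi1 by more than counting error, and their counting intervals for Cebpe overlapped. Without a WT library the remaining one is assumed to vary like the SF1 libraries. Cebpe had 10 and 1 counts in the WT libraries, and Cebpb had 58 and 3, so the counting error of the lower WT library is wide for both.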
